A study of Bos taurus with 9 samples.

Results

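The 184 circRNAs described here were listed at 0 in all 3 libraries of untreated MAC-T cells and above 0 in at least 3 of the 6 libraries of LPS-treated cells, and they were found among 3763 circRNAs of the series (4.89%). The members were chosen by their deposited TPM, so the 0 values at 0 h and the presence after LPS are a description of the choice and are not tested. MAC-T cells are an established epithelial line from the bovine udder. Untreated cells were the 0 h group, and cells with 50 ng/μL LPS, a cell wall component of Gram-negative bacteria, were collected at 6 and 12 hours (6 hpi and 12 hpi), and every time had 3 libraries. The cells of a time point grew on a culture plate of their own, and the study describes no untreated plate for 6 or 12 hours. Plate, time in culture and LPS thus cannot be told apart. If the replicates are wells of a plate, the spread given here is that between wells.

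CircRNAs are closed rings of RNA that form when the end of an exon is spliced back to the start of the same or an earlier exon. A ring has no free ends for exonucleases to attack, so circRNAs are often more stable than the linear RNA of their gene. Most are scarce, and some are known from human and mouse cells to bind microRNAs or proteins. Because they lack a poly(A) tail they are sequenced from RNA depleted of ribosomal RNA, and each is counted by the reads that cross its back-splice junction. The deposited rows name each circRNA by a number alone (novel_circ_ and 7 digits). They pair no circRNA with a gene, a position or a sequence, so host genes, sequences and the epithelial identity of the cells could not be examined from these rows.

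The number of circRNA reads differed greatly between the libraries of untreated cells. TPM here is the share of a circRNA in the circRNA junction reads of its library, scaled to a fixed total. The values of each library were whole multiples of the TPM of 1 read (100% of values above 0, within 0.05 of a whole number), and the smallest value listed was 2 reads. By these steps the 0 h libraries held 3140, 2334 and 15456 circRNA reads, those of 6 hpi 6199, 8196 and 8863, and those of 12 hpi 9806, 9493 and 9648. A circRNA therefore had to reach 637 TPM to be listed in 0 h replicate 1 and 857 TPM in 0 h replicate 2, but 129 TPM in 0 h replicate 3. In the libraries of LPS-treated cells, 204 to 323 TPM were needed. The number of circRNAs listed followed the reads, from 508 in 0 h replicate 2 to 2020 in 0 h replicate 3.

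**Figure D1:**
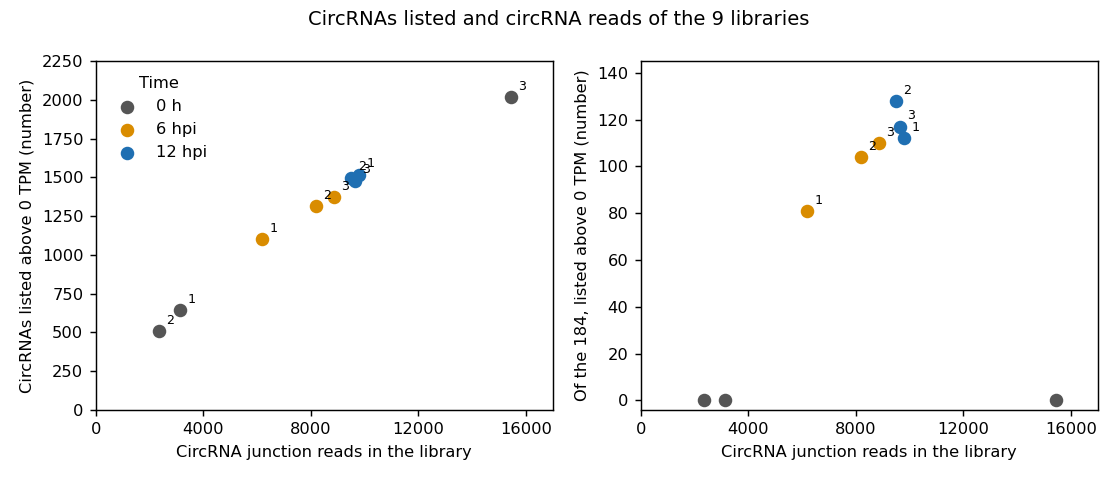
The left plot shows the circRNAs listed above 0 TPM (y axis) against the circRNA junction reads of each library (x axis), and the right plot the same for the 184 circRNAs; each point is 1 library, numbered by replicate and coloured by time point. The 0 h libraries are the lowest and the highest of the 9 on the left, from 508 to 2020 circRNAs, and lie at 0 on the right because the rule set them there.

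All 184 circRNAs were scarce. Their mean over the 6 LPS libraries ran from 104 to 662 TPM with a median of 215 TPM (quartiles 165 and 280.3). The other 1076 circRNAs that were above 0 in at least 3 LPS libraries had a median of 439 TPM and reached 17218 TPM. Summed over the 6 libraries, a member had 6 to 32 junction reads, with a median of 11. Of the 652 values above 0, 222 stood for 2 reads and 176 for 3 reads, together 61%, against 29.2% of the values of the other 1076 circRNAs. A value of 5 or more reads in an LPS library was held by 92 members, one of 10 or more by 8 members, and the highest was 11 reads.

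Each LPS library listed only a part of the group. At 6 hpi the 3 libraries listed 81, 104 and 110 of them, and at 12 hpi 112, 128 and 117. They took 4.24, 4.29 and 4.48% of the circRNA reads at 6 hpi and 4.21, 4.95 and 4.18% at 12 hpi. Of the 184, 108 were above 0 in 3 LPS libraries, 55 in 4, 18 in 5 and 3 in all 6. Members above 0 in all 3 libraries of 6 hpi numbered 16 and in all 3 of 12 hpi 37; over all 3763 circRNAs the same pattern was met by 0.425 and 0.983%, and since the rule used these values nothing is read from the counts. Members above 0 at both times numbered 172, those at 12 hpi alone 9 and those at 6 hpi alone 3.

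**Figure D2:**
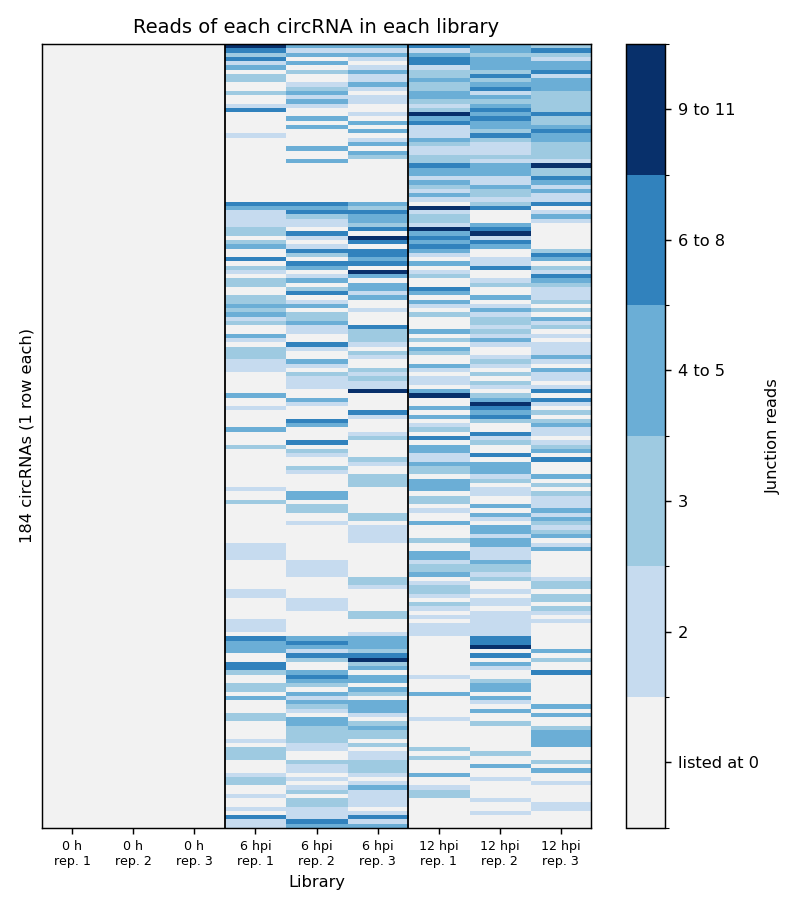
Each row is 1 of the 184 circRNAs and each column 1 of the 9 libraries, with the colour giving junction reads from listed at 0 (grey) to 9 to 11 reads (dark blue); rows are ordered by the number of 12 hpi and then of 6 hpi libraries in which they were listed. Most rows are broken by 0 values within a time point, and only 3 rows are filled in all 6 LPS libraries.

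The 3 circRNAs listed in every LPS library were novel_circ_0004015, novel_circ_0001784 and novel_circ_0001841. novel_circ_0004015 had the highest mean of the group. It had 1452, 610.1 and 564 TPM at 6 hpi, then 612, 421 and 311 TPM at 12 hpi, which stood for 9, 5, 5, 6, 4 and 3 reads. One library, 6 hpi replicate 1, was far above the other 5, and the time points overlapped. novel_circ_0001784 had 1129, 244 and 226 TPM at 6 hpi and 204, 527 and 622 TPM at 12 hpi (7, 2, 2, 2, 5 and 6 reads), so 6 hpi replicate 1 was again the highest and 3 of the 6 values lay at the least that can be listed. novel_circ_0001841 was the steadiest of the 3, with 484, 610.1 and 451 TPM at 6 hpi and 509.9, 316 and 311 TPM at 12 hpi (3, 5, 4, 5, 3 and 3 reads).

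Other members with high means were at 0 in single libraries. novel_circ_0000731 had 968, 976 and 564 TPM at 6 hpi and 0, 316 and 829 TPM at 12 hpi (6, 8, 5, 0, 3 and 8 reads). novel_circ_0001313 had 807, 488 and 338 TPM at 6 hpi and 1019.8, 737 and 0 TPM at 12 hpi (5, 4, 3, 10, 7 and 0 reads). The library at 0 was 12 hpi replicate 1 for the first and 12 hpi replicate 3 for the second, so a ring with 8 or 10 reads in 1 library could be unlisted in another of the same time point. Of the 92 members that reached 5 reads in an LPS library, 72 (78.3%) had a library of the same time point at 0. Among the other 1076 circRNAs, 902 reached 5 reads and 427 of them (47.3%) had such a library. As shares of all members and of all the other circRNAs these were 39.1 and 39.7%, and the others had a higher median level.

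The rule cuts through a gradual series of values. Just inside it, the 108 circRNAs above 0 in 3 LPS libraries had means of 104 to 362 TPM over the 6 libraries (median 172). Just outside it, 295 circRNAs at 0 in all 0 h libraries were above 0 in 2 LPS libraries, with means of 68.5 to 569.8 TPM (median 120.1). novel_circ_0000073 is among the lowest inside, with 226 TPM in 6 hpi replicate 3, 204 TPM in 12 hpi replicate 1, 211 TPM in 12 hpi replicate 2 and 0 in the other LPS libraries, that is 2 reads each. novel_circ_0004883 is the highest outside, with 1952 TPM in 6 hpi replicate 2, 1467 TPM in 6 hpi replicate 3 (16 and 13 reads) and 0 elsewhere. On the side of the untreated cells, 487 circRNAs above 0 in at least 3 LPS libraries were listed in 1 of the 3 libraries of 0 h, and for 438 of these it was replicate 3. In that library, 57 of them stood at 2 reads.

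The absence at 0 h was next set against the depth of the 0 h libraries. A 0 in these tables means at most 1 read. For each of the 1260 circRNAs above 0 in at least 3 LPS libraries, the reads expected at 0 h were computed from its mean TPM over the 6 LPS libraries and the circRNA reads of each 0 h library. For the 184 members this gave 0.325 to 2.08 reads in replicate 1 (median 0.674), 0.242 to 1.54 in replicate 2 (median 0.501) and 1.6 to 10.2 in replicate 3 (median 3.32). Only 1 member had a mean at or above the least TPM that replicate 1 could list, and 0 members had one for replicate 2. For replicate 3 it was 172 members. The absence before LPS thus rested more on replicate 3 than on replicates 1 and 2. At 0 in replicate 3 were 240 of the 1260 circRNAs, and the demand of 0 in replicates 1 and 2 as well lowered this to 184.

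The number absent at 0 h was set against the number that Poisson counting gives. With Poisson counting at the mean LPS level, 80.6 of the 1260 were expected at 0 in all 3 libraries of 0 h, and 184 were found (2.28 times). By library, 786 were at 0 in replicate 1 where depth gave 732, 865 in replicate 2 where depth gave 851, and 240 in replicate 3 where depth gave 100.04. In replicates 1 and 2 most circRNAs were expected at 0, which caps this ratio lower than in replicate 3. Depth still gave 528 and 409 of the 1260 as listed there, and 474 and 395 were listed. In replicate 3 depth gave 1160 as listed, and 1020 were. The levels came from circRNAs picked for being above 0 in at least 3 LPS libraries, which raises their mean and lowers the number expected at 0. Values of 1 read in an LPS library entered the mean as 0, which works the other way. The net error of the expectation and its direction are not given here. Poisson counting also covers counting error only and has no spread between replicates, so these numbers carry no p, and they depend on the level taken: with the level of 12 hpi alone 117 were expected to be absent and with that of 6 hpi alone 155. CircRNAs at 0 in all 3 libraries of the time taken then have a level of 0 and count as absent in full. There were 8 of these for 12 hpi and 36 for 6 hpi. Without replicate 3 the rule was met by 622 circRNAs, with 594 from depth. With replicate 3 as the only 0 h library it was met by 240.

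An excess over Poisson counting was found in the LPS libraries too. For each of them, the circRNAs above 0 in at least 3 of the other 5 LPS libraries were taken in the same way. The number at 0 was 1.31 to 1.74 times that from depth in the 6 hpi libraries and 1.64 to 1.9 times in the 12 hpi libraries, against 1.07, 1.02 and 2.4 times in the 0 h libraries. The ratios of the 9 libraries followed their order in circRNA reads, except that of 12 hpi replicate 2, and 0 h replicate 3 had both the most reads and the highest ratio. In 12 hpi replicate 1, 25.1% of 1064 such circRNAs were at 0 where depth gave 13.2%, and in 0 h replicate 3, 19% of 1260 where depth gave 7.94%.

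As a ratio, the excess at 0 h grew with the level of the circRNA, while its number fell above 300 TPM. Below a mean of 150 TPM in LPS-treated cells, 27 of 70 circRNAs were at 0 in all 0 h libraries and depth gave 24.6. From 150 to 200 TPM there were 51 of 143 (depth 30) and from 200 to 300 TPM 66 of 272 (depth 22.2). From 300 to 500 TPM there were 37 of 293 where depth gave 3.63. From 500 to 1000 TPM there were 3 of 297, and of the 185 circRNAs above that 0 were absent. At least 10 reads were expected at 0 h for 507 of the 1260 circRNAs, and 5 of these were members. They were novel_circ_0004015 (13.8 reads), novel_circ_0000731 (12.7 reads), novel_circ_0001313 (11.8 reads), novel_circ_0001784 (10.3 reads) and novel_circ_0000366 (10.2 reads), each with at most 1 read in any 0 h library. novel_circ_0000366 had 1129, 488 and 564 TPM at 6 hpi and 0, 737 and 0 TPM at 12 hpi.

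**Figure D3:**
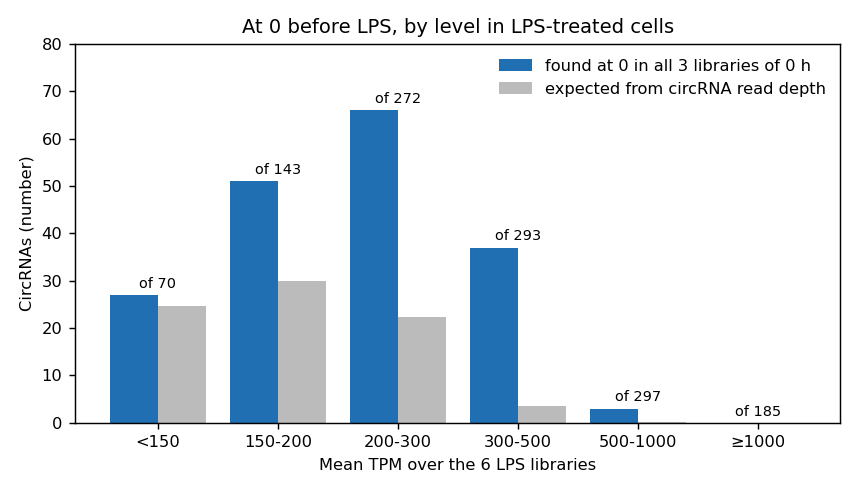
Bars give the circRNAs at 0 in all 3 libraries of 0 h (blue) and the number that circRNA read depth gives (grey), on the y axis, for classes of mean TPM over the 6 LPS libraries, on the x axis; the label above each pair is the number of circRNAs in the class. Blue exceeds grey most in number from 200 to 300 TPM (66 against 22.2), and no circRNA of 1000 TPM or more was absent.

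Absence at 0 h was then compared with absence at the other time points. With 6 hpi in the place of 0 h, 126 circRNAs were at 0 in its 3 libraries and above 0 in at least 3 of the other 6, where depth gave 87.7 (1.44 times). With 12 hpi in that place there were 65, where depth gave 23 (2.83 times). As shares of the circRNAs that could have been absent, these were 14.6% at 0 h, 10.8% at 6 hpi and 6.33% at 12 hpi. Among circRNAs for which at least 10 reads were expected, 5 of 507 were absent at 0 h, 14 of 542 at 6 hpi and 17 of 691 at 12 hpi. The share was lowest at 0 h here, but highest at 0 h among circRNAs with at least 5 expected reads, with 70 of 930 at 0 h, 64 of 908 at 6 hpi and 54 of 968 at 12 hpi. The comparisons of 6 and 12 hpi take part of their levels from the shallow 0 h libraries, in which 2 reads already make 637 or 857 TPM.

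With the same number of reads in every library, the 3 time points gave like numbers. When each library was reduced by calculation to the 2334 reads of the shallowest, 64.9 circRNAs were expected at 0 in the 0 h libraries, 59.1 at 6 hpi and 67.5 at 12 hpi. At that depth 2 reads stand for 857 TPM, while the highest mean of a member was 662 TPM. The numbers are sums over all circRNAs, so they say little about the 184. The 3 counts share circRNAs and libraries, so no test was attached to their differences. Fewer cells that make a circRNA and fewer copies in each cell cannot be told apart in RNA from whole cultures. Read totals of the whole libraries order them otherwise. By mapped reads the 0 h libraries were the deepest of the 9, and by raw reads 0 h replicate 2 was the shallowest. With mapped reads as the depth 17.7 circRNAs were expected to be absent at 0 h, and with raw reads, an alternative added after seeing the data, 63.6. By either total, 0 h replicates 1 and 2 had fewer circRNA reads per read than any LPS library. 0 h replicate 3 lay within the range of the LPS libraries per mapped read and above it per raw read. The part of this in the absence of the 184 circRNAs was not tested.

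**Figure D4:**
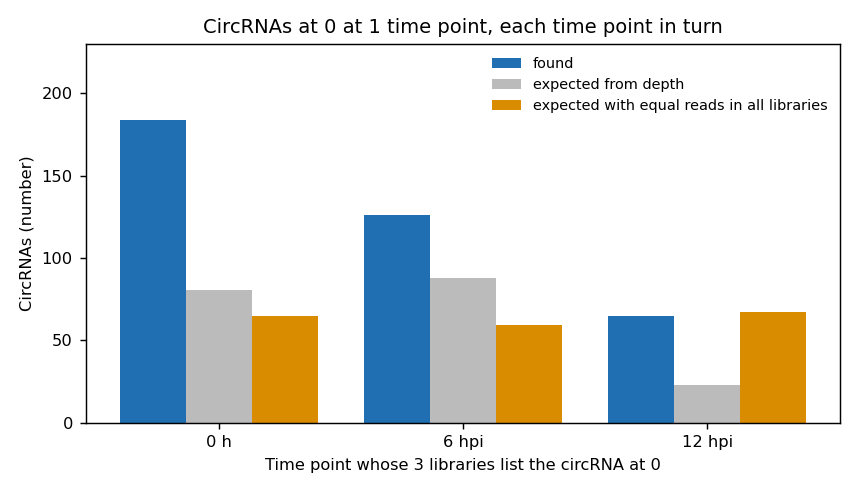
For each time point on the x axis, bars give the circRNAs at 0 in its 3 libraries and above 0 in at least 3 of the other 6 (blue), the number from circRNA read depth (grey) and the number when all libraries are reduced to 2334 reads (orange). Blue falls from 184 at 0 h to 65 at 12 hpi, and orange lies between 59.1 and 67.5.

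Between 6 and 12 hpi, a contrast that the rule did not use, 0 of the 184 circRNAs passed an adjusted p under 0.05. The test was limma on log2(TPM + 129.4), fitted to the 1586 circRNAs above 0 in at least 3 of the 9 libraries, with Benjamini-Hochberg adjustment over all of them, and all 184 members passed the filter by their rule. The 0 h libraries were part of the fit, and their values, which the rule fixed at 0 for the members, entered the members' variance. The members' p thus draw in part on values that the rule used. Of all circRNAs tested 0 passed as well (0% called), and the smallest adjusted p was 0.998. At an unadjusted p under 0.05 there were 13 of the 184 members (7.07%) and 48 of all tested (3.03%). With the study's thresholds for lncRNAs, a log2 fold change past 1 in either direction with a p under 0.05 before adjustment, 10 members were higher at 12 hpi (5.43%, against 2.02% of all tested) and 3 were lower (1.63%, against 0.883%). With only the 6 LPS libraries in the fit, 10 members were again higher and 3 lower. Of the 1260 circRNAs then tested, 44 were higher and 17 lower. The values of the time points did not overlap in 12 members that were higher at 12 hpi (6.52%, against 5.23% of all tested) and in 4 that were lower (2.17%, against 3.15%). The median log2 fold change was 0.23 for the members and 0.05 for all tested. The members' median was −0.0775, −0.12 and −0.0753 without 12 hpi replicate 1, 2 and 3, and 0.192, 0.196 and 0.243 without those of 6 hpi. With the filter kept on all 9 libraries, added after seeing the data, it was 0.0955, 0.0847 and 0.0789 without 12 hpi replicate 1, 2 and 3.

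The members past these thresholds were nearly all listed at 1 time point alone. Of the 13, 9 were the circRNAs listed in all 3 libraries of 12 hpi and in 0 of 6 hpi, and 3 were those listed in all 3 of 6 hpi and in 0 of 12 hpi. They entered the test only through the time point at which they were listed, so their counts support nothing about the group. novel_circ_0001659 had the smallest unadjusted p of the members, with 816, 421 and 933 TPM at 12 hpi (8, 4 and 9 reads) and 0 in the 3 libraries of 6 hpi. novel_circ_0005238 showed the reverse, with 968, 244 and 789.8 TPM at 6 hpi (6, 2 and 7 reads) and 0 at 12 hpi. The remaining one, novel_circ_0001448, had 0, 0 and 226 TPM at 6 hpi and 918, 421 and 829 TPM at 12 hpi. Its log2 fold change was 2.18 (standard error 0.99, unadjusted p = 0.03 and adjusted p = 0.998 from limma), higher in 3 of 3 libraries of 12 hpi than in any of 6 hpi. Without 6 hpi replicate 1, 6 hpi replicate 2 or 12 hpi replicate 1 its log2 fold change stayed above 1 (1.94, 1.94 and 2.00). The unadjusted p from limma was then 0.0875, 0.0904 and 0.0515, so novel_circ_0001448 no longer met the thresholds. With a pseudocount 5 times as large it missed them by its log2 fold change (0.92).

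The group as a whole held a like share of circRNA reads at both times. The summed TPM was 43389 ± 1244 (SD, n = 3) at 6 hpi and 44466 ± 4372 at 12 hpi, and their difference of 1077 was smaller than either spread. Without 12 hpi replicate 2 the difference was −1445. The number of members listed was 98.3 ± 15.3 (SD, n = 3) at 6 hpi and 119 ± 8.19 at 12 hpi. The 12 hpi libraries also held more circRNA reads. Members listed in more libraries of 12 hpi than of 6 hpi numbered 92 and the reverse 51, and among the other 1076 circRNAs the counts were 364 and 200. No p is attached to sums over the group, since its members were chosen with results known.

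**Figure D5:**
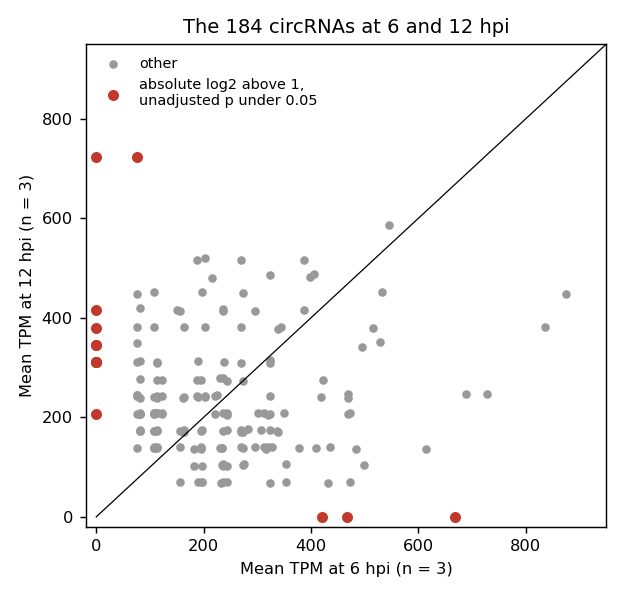
Each point is 1 of the 184 circRNAs at its mean TPM at 6 hpi (x axis) and 12 hpi (y axis), each over 3 libraries, with the line of equal values; red points changed by more than 1 on the log2 scale with a p under 0.05 before adjustment. Of the 13 red points 12 lie on an axis, where 1 of the time points was listed at 0.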

How the data were processed

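CircRNAs were measured in RNA depleted of ribosomal RNA from 9 libraries of MAC-T cells. The deposited values are TPM made by the authors, which by their values are junction reads scaled to the circRNA total of a library without a length term. For the circRNA caller and its filters, the sources used here give nothing. The submitters' processing notes name HISAT2, Cuffdiff 2.1.1, DESeq 1.10.1 and ARS-UCD1.2 for the series. The time point in the title gave the group of each library. Reads were recovered by dividing TPM by the TPM of 1 read, and intervals or expectations from them cover counting error only. Expected numbers were sums of Poisson probabilities, and equal depth was computed by exact hypergeometric sums in Python 3.11.15 with scipy 1.17.1.

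Between 6 and 12 hpi, limma 3.58.1 in R 4.3.3 was run on log2(TPM + 129.4), the smallest TPM above 0, with all 9 libraries in 1 fit and a mean-variance trend. A fold change on this scale understates the change of scarce circRNAs. All tests were two-sided. The members and lists were chosen with earlier results of these data known. CircRNAs named are those above 0 in all 6 LPS libraries, those whose LPS level predicts most reads at 0 h, those past a threshold between 6 and 12 hpi and examples at the edge of the rule; of the many that met this only a few are printed. Planned tests of lncRNAs at host genes and of gene lists could not be made, because the circRNA rows carry no gene, and the lncRNA tables were not used. The functions were tested on simulated data.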

Additional observations from a re-analysis of the deposited data

How the results depend on the processing

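The number of circRNAs listed only after LPS was 184 by the rule. It was 479 with at least 2, 76 with at least 4 and 3 with all 6 LPS libraries above 0, and 138 with values under 3 reads set to 0. Leaving out 1 library gave 117 (without 12 hpi replicate 2) to 622 (without 0 h replicate 3), in part because 3 of 5 is a harder demand than 3 of 6. With 0 h replicates 1 and 2 left out together it was 240, and with every library cut to equal reads 64.9, an alternative chosen after seeing the data. That 64.9 is a sum over all circRNAs at a depth where 2 reads stand for 857 TPM, above the highest mean of the 184 (662 TPM).

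The number given by depth, 80.6, was 17.7 with mapped reads as the depth, 63.6 with raw reads (added after seeing the data), 155 with the level of 6 hpi alone, 117 with that of 12 hpi alone, 83.7 with values under 3 reads set to 0 and 35.8 to 594 without 1 library. In each of these settings fewer were given by depth than were found in the same setting, for example 594 beside 622 without 0 h replicate 3 and 83.7 beside 138 with values under 3 reads set to 0. All of them take circRNAs picked for presence after LPS and have no spread between replicates. They are therefore not independent checks of the excess.

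Between 6 and 12 hpi, 0 members passed the adjusted p in any setting run. With a pseudocount 5 times as large 1 member was higher and 0 were lower at the thresholds, against 4 and 4 of all tested. With a filter of 5 of 9 libraries it was 0 and 0 of the 21 members left, against 11 and 7 of all tested. Without a filter 6 members were higher (29 of all tested), and without a trend 6 were lower (17 of all tested). Without 1 library, 0 to 16 members were higher and 1 to 6 lower, where 117 to 184 members were left. Of all circRNAs tested 19 to 43 were then higher and 8 to 20 lower. With the filter kept on all 9 libraries, added after seeing the data, 9 to 14 members were higher and 3 to 6 lower (22 to 43 and 7 to 22 of all tested). Scaling to circRNAs listed in all 9 libraries, also added, gave 10 and 3 (35 and 14 of all tested). The summed TPM differed by −1445 to 2425. With replicate number as a block 10 members were higher and 3 lower (32 and 14 of all tested), as without it. Deviations from the group means of same-numbered libraries correlated by −0.0241 to 0.0176, and those of other-numbered libraries by −0.0309 to 0.0279. No pairing by replicate number was seen, but many circRNAs have few reads, so the check cannot exclude one. A count test on the recovered reads and TMM scaling were not run.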

Other observations

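CircRNAs with the reverse pattern were listed before LPS alone. At 0 in all 6 LPS libraries and above 0 in a library of 0 h were 509 circRNAs, of which 407 were listed in 0 h replicate 3 alone. In at least 2 libraries of 0 h 34 of them were listed, and in all 3 libraries 1. Listed in all 3 libraries of 0 h and at 0 in all 3 of 6 hpi were 4 circRNAs, and 2 were so for 12 hpi, where the shallow 0 h libraries limit the counts. Between the LPS time points, 36 of the 3763 circRNAs were listed in all 3 libraries of 12 hpi and 0 of 6 hpi, and 8 were the reverse. The 12 hpi libraries together held 28947 circRNA reads against 23258 at 6 hpi, so nothing is read from the difference between these counts.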
